A study of Mus musculus with 6 samples.

Results

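To determine whether the higher level of Id1 at 4 h was shared by its family and by the signalling pathway that is known to induce it, all probes of 10 genes were examined. These were the ID factors (ID1, ID2, ID3 and ID4), the receptor-activated SMADs (SMAD1 and SMAD5), the inhibitory SMADs (SMAD6 and SMAD7) and the BMP receptors (BMPR1A and BMPR2). The set was chosen by measured values in part: Id1 was picked because its signal differed between 4 h and 16 h in these same samples, and the other genes were added by family and pathway. The 10 genes had 18 probes, out of 28902 genes and 45281 probes on the array.

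The samples were mGLUTag cells, an immortalized mouse line of the L-cell, the enteroendocrine cell that makes glucagon-like peptide-1. All of them had been starved in low serum and treated with forskolin, which raises cAMP, and were then returned to growth medium. RNA was taken at 4 h (n = 3) and 16 h (n = 3), with no unsynchronized or vehicle group. The labels do not say whether the samples of a time point were separate cultures, so the p-values measure the spread between these samples, which may be technical.

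Bone morphogenetic proteins (BMPs) are secreted ligands that bring together type I and type II receptor kinases. The receptors phosphorylate SMAD1 and SMAD5, which enter the nucleus with SMAD4 and switch on target genes. The ID genes are the best known of these targets, and the inhibitory SMADs are also induced and act as negative feedback. ID proteins have a helix-loop-helix but no DNA-binding region, so that they hold E proteins, and through them tissue-specific bHLH factors, away from DNA. In the intestine, BMP signals are known to act along the crypt-villus axis, and bHLH factors such as NEUROD1 direct enteroendocrine fate.

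Each sample was hybridized to 1 array. The mean deposited intensity per array lay between 291 and 354 at 4 h and between 216 and 246 at 16 h, and the median probe with signal on all arrays was 1.46-fold brighter at 4 h. Log2 values were therefore compared after quantile normalization, which reports a probe relative to the rest of its array. Each array's values below 0 gave it a noise limit, between 9.2 and 14 intensity units, which 14941 probes exceeded in all 6 samples. Of the L-cell marker genes, 8 of 11 exceeded it in every sample, among them Gcg, Chgb and Isl1, while Pyy did so in none. Of the endothelial and immune cell markers, 0 of 4 and 0 of 3 did so, and of the fibroblast markers 1 of 5. The summed intensity of the fibroblast markers was between 34.1 and 56.4 at 4 h and between 14 and 37.2 at 16 h, and its part in the results was not tested. The 18S ribosomal RNA probes differed between arrays within both time points, with mean log2 levels from 6.91 to 10.6. Member values are also given within sets of arrays divided by 18S level.

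The members fell into 2 kinds. Of the 18 probes, 9 exceeded the noise limit in every sample, and these belonged to 6 genes (Id1, Id2, Id3, Smad1, Smad5 and Bmpr1a). A further 4 probes were above it on between 1 and 5 arrays, and 5 were above it on none. The inhibitory SMADs, Id4 and the probes that carry the name of Bmpr2 were at or near background.

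Promoter windows from RefSeq (build GRCm38.p6) were matched for 8 of the 10 genes in the table used here; those of Id1 and Smad7 were not analysed here. The 250 bases before the start of Id2 and Id3 are shown because these are the ID genes, other than Id1, with signal on all arrays. The windows of 300 bases, reaching 50 bases past the start, were searched on both strands for short motifs. These were TGACGTCA and its half-site TGACG (cAMP response element), GGCGCC (an element of BMP-responsive enhancers), CAGAC (SMAD box) and CACGTG (the canonical E-box, which BMAL1 can bind). Noncanonical E-boxes, which BMAL1 can also bind, were not searched. Capitals mark matches, and the Id2 window lies at chr12:25096093-25096342 on the minus strand and the Id3 window at chr4:136143572-136143821 on the plus strand.
Id2: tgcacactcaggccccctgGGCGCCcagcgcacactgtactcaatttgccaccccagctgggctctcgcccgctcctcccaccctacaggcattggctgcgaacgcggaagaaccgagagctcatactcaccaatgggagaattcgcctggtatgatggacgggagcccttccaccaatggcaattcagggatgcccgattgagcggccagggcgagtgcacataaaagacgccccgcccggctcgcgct
Id3: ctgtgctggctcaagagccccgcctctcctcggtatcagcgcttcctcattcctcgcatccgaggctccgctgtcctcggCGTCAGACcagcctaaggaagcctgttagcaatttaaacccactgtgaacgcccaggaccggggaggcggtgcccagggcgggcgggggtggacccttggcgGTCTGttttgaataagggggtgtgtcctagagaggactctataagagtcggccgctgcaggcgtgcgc

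The Id2 window held 1 GGCGCC, at position -231 from the start. In the Id3 window a cAMP half-site on the minus strand, at -170, overlapped a CAGAC at -167, and 1 more CAGAC lay on the minus strand. The Id4 window held 1 half-site and 1 GGCGCC. These motifs were not particular to ID genes: GGCGCC was found in 6 of 10 windows, among them windows of Smad5, Bmpr1a and Bmpr2, TGACG in 4, among them windows of Smad1 and Smad5, and CAGAC in 2 (Id3 and Smad5). Neither TGACGTCA nor CACGTG was found in any of the 10 windows of the 8 genes, and the Smad6 window held none of the 5 motifs. Among all 32851 promoter windows, 1.79% held TGACGTCA, 20.8% TGACG, 11.9% GGCGCC, 49.6% CAGAC and 7.15% CACGTG. A match describes these letters only and is not a binding site.

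Id1, the founding ID factor and a marker of active BMP signalling in many tissues, is the gene on which the set was built. At its single probe (ILMN_2672190) the 4 h arrays read 803, 722.6 and 770.4 in the deposited table, and the 16 h arrays 295.7, 332.8 and 245.3. Every 4 h array was above every 16 h array, here and after normalization, and the 4 h arrays differed little among themselves. After normalization, 6.12% of all probes with signal on all arrays were separated in this direction. The ratio of the means was 2.63, or 1.80 times the ratio of the median detected probe. On the normalized scale the 4 h level was 9.48 ± 0.10 and the 16 h level 8.72 ± 0.05 (SD, n = 3 each), a log2 difference of 0.76 (SE 0.074). Id1 was 1 of the 2 probes in 45281 that passed the threshold as higher at 4 h, a background of 0.00442%. That call was lost in 14 of 20 alternatives, among them the omission of any single array and the replicate block, while the change stayed between 0.70 and 0.86. As this contrast led to its choice, these values are a description and were not tested again.

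Id2, an ID factor with its own roles in epithelial and lymphoid differentiation, read 510.2, 424.4 and 400.4 in the 4 h arrays and 211.4, 226.5 and 204.6 in the 16 h arrays (deposited intensity, probe ILMN_1228557). The normalized log2 values were 8.84, 8.90 and 8.56 at 4 h, against 8.28, 8.32 and 8.48 at 16 h. The time points did not overlap, although 4 h replicate 3 lay close to 16 h replicate 3. The log2 difference was 0.41 (SE 0.10, 95% interval 0.18 to 0.64), and with adjustment over the whole array it missed the threshold (limma adjusted p = 0.511). Its second probe (ILMN_2887239) was dim, with 30, 22 and 16 at 4 h and 10, 13.1 and 6.1 at 16 h, and differed by 0.15 (SE 0.076, limma adjusted p = 0.920). A probe listed under the older name IDB2 (ILMN_1236868), outside the rule, differed by 0.14 (limma adjusted p = 0.959). All 3 probes of Id2 thus had a higher mean at 4 h, and none passed the threshold.

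Id3, which in many cells is induced together with Id1, read 164.1, 220.4 and 224.8 in the 4 h arrays and 70.6, 110.9 and 66.2 in the 16 h arrays (deposited intensity, probe ILMN_2687169). On this scale the time points did not overlap and the ratio of the means was 2.46, against 2.63 for Id1 and 2.08 for Id2. The median detected probe was 1.46-fold brighter at 4 h, and the share of all probes without overlap on this scale was not counted. After normalization the values were 7.51, 8.16 and 7.90 at 4 h and 7.17, 7.58 and 7.32 at 16 h, so that 4 h replicate 1 fell just below 16 h replicate 2. The log2 difference was 0.50 (SE 0.16, 95% interval 0.14 to 0.87, limma adjusted p = 0.741). The spread of Id3 within a time point, with an SD of 0.32 at 4 h, was wider than that of Id1. Before adjustment the intervals of Id2 and Id3 both lay above 0. Their calls depended on the processing. With median scaling, or with no scaling between arrays, and each change taken relative to the median detected probe, both genes passed the threshold when all probes were tested (limma adjusted p = 0.0123 and 0.00909 for Id2, and 0.0206 and 0.0187 for Id3). In those fits most calls were dim probes called lower, and when only probes with signal on all arrays were tested, a restriction chosen after these calls had been seen, neither gene passed (limma adjusted p = 0.639 and 0.944 for Id2, and 0.814 and 0.944 for Id3). Whether either change differed in size from that of Id1 was not tested, since the value of Id1 had served to choose it.

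**Figure D1:**
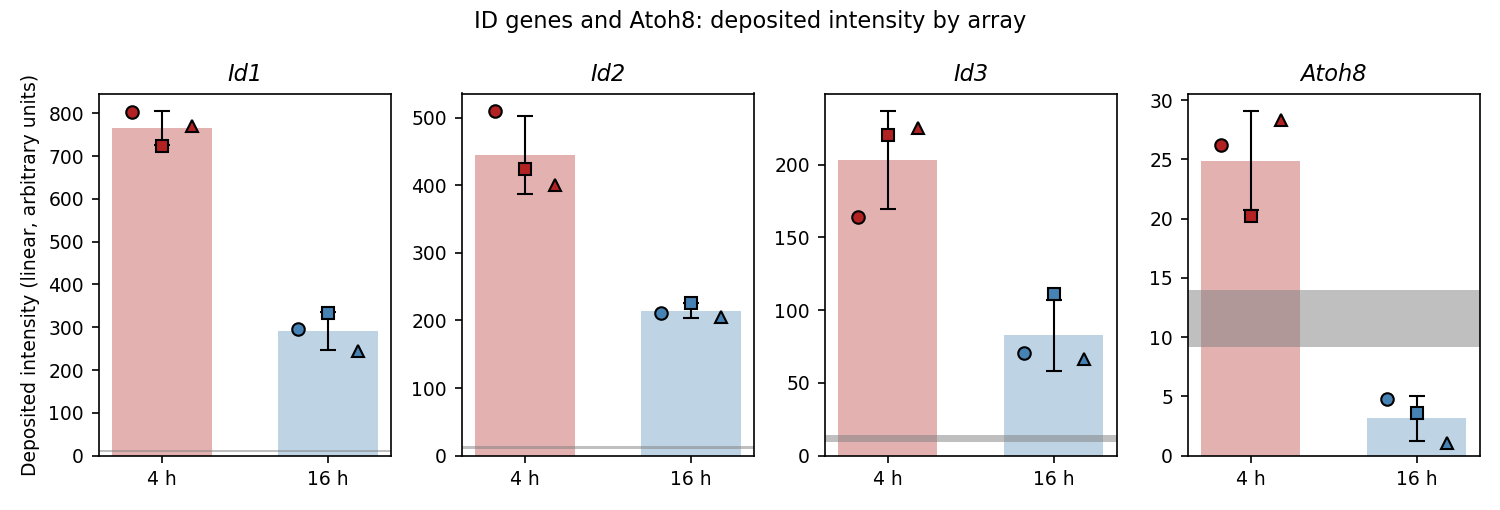
Deposited intensity (linear scale, arbitrary units) of the Id1, Id2, Id3 and Atoh8 probes at 4 h and 16 h. Circles, squares and triangles are replicates 1, 2 and 3, bars and error bars are the mean and SD (n = 3), and the grey band spans the noise limits of the arrays (9.2 to 14 units). In all 4 panels each 4 h array lies above each 16 h array, and Atoh8 at 16 h lies under the band. Atoh8 had the smallest p of its list of BMP targets and signal at 4 h only, and the 4 genes of that list with signal on all arrays had a median log2 change of -0.04. The median detected probe was itself 1.46-fold brighter at 4 h. Other genes of the lists, among them Tgfbr1 and Smad2, were also without overlap on this scale. The share of all probes without overlap on this scale was not counted.

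Id4, which is best known from the nervous system and gland epithelia, lay at background. Its probe (ILMN_2678714) read 2.9, -0.9 and -0.8 at 4 h and -2.6, -10 and -6.3 at 16 h, above the noise limit on 0 of 6 arrays. A second probe under the name IDB4 was also above it on none. No change is given for Id4, and its expression in these cells was not detectable. Apart from Id1, then, 2 of 3 ID genes had a signal on all arrays, and both had a higher mean at 4 h, as did 50.4% of all probes with such signal.

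The arrays were also divided by their 18S signal, a separation defined after the data had been seen. The sets were not uniform: with the division at the median, mean log2 18S levels in the high set ran from 8.50 to 10.6. Divided at the median, the arrays with high 18S (4 h replicates 1 and 3, 16 h replicate 1) gave log2 differences of 0.74 for Id1, 0.42 for Id2 and 0.54 for Id3, and the others 0.85, 0.50 and 0.71. A division at the midpoint of the 18S range, which was tried first, put only 4 h replicate 3 and 16 h replicate 1 in the high set and gave 0.72, 0.28 and 0.73 there and 0.78, 0.47 and 0.39 in the others. Id1, Id2 and Id3 were higher at 4 h in all of these sets. For Id1 and Id2 this direction was fixed beforehand, since their time points did not overlap on the normalized scale. For Id3 only 4 h replicate 1 lay below a 16 h array, replicate 2. The sets are too small for a test of their own, and nothing is read from the shared direction. Of the other member probes, some kept their sign in all sets and some did not. The brighter Smad1 probe gave 0.12 and 0.16 under the median division and 0.17 and 0.16 under the midpoint division. In the same order the second Bmpr1a probe gave 0.07 and 0.35, then 0.12 and 0.39. The brighter Smad5 probe gave -0.17 and -0.05, then -0.11 and -0.06. The remaining probes changed sign in at least one division. Under the midpoint division the brighter Bmpr1a probe gave 0.42 and -0.07, the second Smad1 probe 0.14 and -0.01, and the dimmer Smad5 probe 0.11 and -0.14. Under the median division the dimmer Smad5 probe gave 0.03 and -0.08. There the brighter Bmpr1a probe (0.19 and 0.05) and the second Smad1 probe (0.07 and 0.08) stayed above 0.

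Smad1, one of the SMADs that carry the BMP signal to the nucleus, read 327, 246.9 and 346.6 in the 4 h arrays and 201, 209.7 and 135.1 in the 16 h arrays at its brighter probe (ILMN_2671572). After normalization the lowest 4 h value, 8.28, lay just above the highest 16 h value, 8.23. The log2 difference of 0.16 (SE 0.082, 95% interval -0.023 to 0.35) missed the threshold (limma adjusted p = 0.920). A second bright probe (ILMN_2953700) overlapped between the time points and differed by 0.04 (SE 0.10, limma adjusted p = 0.984). The other 2 probes under the symbol Smad1 were near background. ILMN_1234354 was above the noise limit only in 4 h replicate 1, at 17.6, and ILMN_2439293, between -2.3 and 10.5, on none of the arrays. A probe listed under the older name MADH1 (ILMN_1240219), outside the rule, was also above it on none.

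Smad5, which acts beside SMAD1, was measured by 2 probes with signal in every sample. The brighter (ILMN_3155789) read 246.3, 184.8 and 261.9 at 4 h and 193.1, 160.8 and 144.3 at 16 h. This ratio of 1.39 lay slightly below that of the median detected probe, and after normalization the difference was -0.08 (SE 0.077, 95% interval -0.25 to 0.095, limma adjusted p = 0.962). The dimmer probe (ILMN_3076864) differed by -0.05 (SE 0.077, limma adjusted p = 0.976). Both probes overlapped between the time points.

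Bmpr1a encodes a type I receptor (ALK3) that phosphorylates these SMADs. Its brighter probe (ILMN_1251119) read 145.2, 134.8 and 216 at 4 h, against 96, 114.2 and 87.6 at 16 h. The normalized values overlapped, with a log2 difference of 0.10 (SE 0.11, 95% interval -0.16 to 0.35, limma adjusted p = 0.967), and the mean difference fell to -0.015 without 4 h replicate 3. The other probe (ILMN_2653312) read 155.1, 102.8 and 159.8 at 4 h and 95.8, 49.3 and 55.6 at 16 h. It differed by 0.30 (SE 0.12, limma adjusted p = 0.892), and its values overlapped because 16 h replicate 1 (7.44) lay between 4 h replicates 2 (7.39) and 1 (7.46). The probes of Bmpr1a therefore gave differences of unequal size, neither past the threshold.

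The 3 probes named for Bmpr2, the type II receptor that activates BMPR1A, gave little signal. The brightest (ILMN_2614324) read 18, 7.2 and 4.4 at 4 h and 13.9, 5.8 and 9.7 at 16 h, above the noise limit on 3 of 6 arrays, and differed by -0.07 (SE 0.079, limma adjusted p = 0.966). ILMN_2614322, between -5.3 and 13.1, was above it on 1 array, and ILMN_2768587, between -9.5 and -1.9, on none. By contrast, a probe listed under a clone name that RefSeq gives as a synonym of Bmpr2 (2610024H22RIK, ILMN_1217466) read 665.1, 553.5 and 898.7 at 4 h and 409.6, 497 and 308.7 at 16 h. It lies outside the rule by which the probes were found. Its log2 difference was 0.23 (limma adjusted p = 0.924). Which transcript the clone probe measures was not tested.

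The feedback genes Smad6 and Smad7, which block receptors and SMADs and are themselves BMP targets, could not be followed. Smad6 (ILMN_3008748) read 9, -0.6 and 8.5 at 4 h and 6.1, 3.7 and 0.4 at 16 h. Smad7 (ILMN_2759660) was below 0 on all 6 arrays, between -6.8 and -0.4. Each was above the noise limit on 0 of 6 arrays, and each had only this 1 probe. A feedback response in these genes was not detectable here, in either direction.

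**Figure D2:**
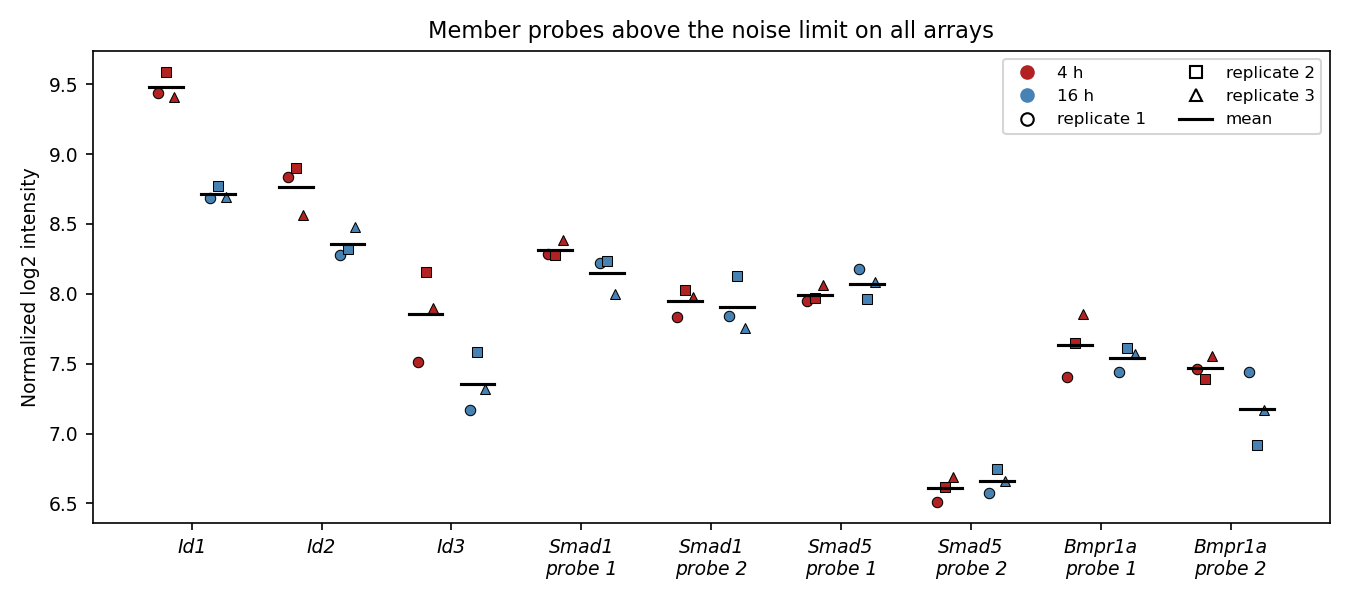
Normalized log2 intensity by array for the 9 member probes with signal in every sample, with 4 h in red and 16 h in blue, a symbol per replicate and a line at each mean (n = 3). Levels of different probes cannot be compared with each other; within a probe, Id1, Id2 and the first Smad1 probe show no overlap between the time points, and the other 6 overlap.

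Apart from Id1, 8 member probes had signal in every sample. None of the 8 passed the threshold in limma, 3 had an unadjusted p under 0.05 as higher at 4 h (Id2, Id3 and the second Bmpr1a probe), and 0 as lower. Among all 14941 probes with signal on all arrays the corresponding shares were 5.74% higher and 5.18% lower. The time points did not overlap, with 4 h higher, for 2 of the 8 (Id2 and Smad1) and for 6.12% of all such probes; with 4 h lower, for 0 of the 8 and for 5.51%. Since the set grew from this contrast and several probes share a gene, nothing is read from these counts beyond their values.

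**Figure D3:**
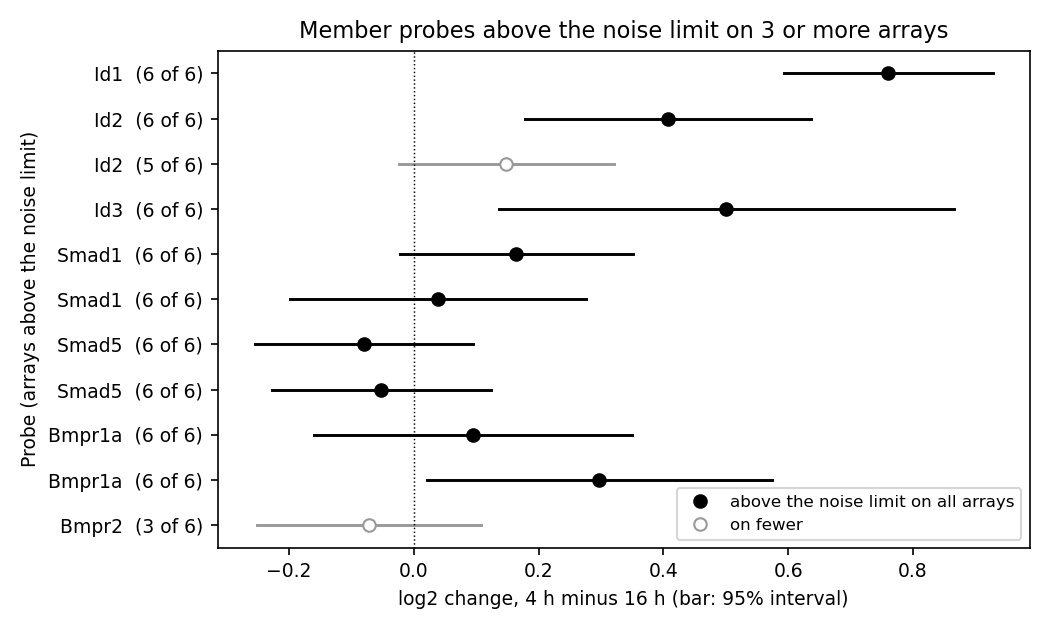
Log2 change (4 h minus 16 h, normalized scale) of the 11 member probes that exceeded the noise limit in at least 3 samples, with the 95% interval from limma, unadjusted for the number of probes. Filled points are probes above the limit on all arrays and open points are the others; the points of Id1, the brighter Id2 probe and Id3 lie farthest to the right, at 0.76, 0.41 and 0.50, the dimmer Id2 probe lies at 0.15, and the Smad5 points lie to the left of 0.

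The rest of the pathway, together with E proteins, tissue bHLH factors and CDK inhibitors, was then examined in lists ordered by role. Each gene was taken at its brightest probe. Leaving out the members, the lists held 99 genes, of which 95 had a probe and 32 had signal in every sample. Of the 95, none passed the threshold as higher or lower in limma (smallest adjusted p = 0.307). Of the 32, 3 had an unadjusted p under 0.05 as higher (Msx1, Hes6 and Cdkn2b) and 3 as lower (Acvr2b, Ctdsp2 and Neurod1), or 9.38% each. Among all probes with such signal the shares were 5.74% and 5.18%, which count probes and not genes. The median log2 change of the 32 genes was 0.0046, against -0.00088 over the 10398 genes with signal on all arrays. Smad4 and 3 other listed genes were not analysed here.

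Ligands gave almost no signal. Of 13 BMP ligands with a probe, 11 were above the noise limit on none of the arrays and 0 on 3 or more. Bmp2, Bmp4 and Bmp7, common ligands of epithelial and mesenchymal tissues, were all at background.

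Among receptors, 5 of 12 BMP receptors and co-receptors had signal in every sample, with changes between -0.33 and 0.23 and a median of 0.05. The fifth gene and the upper end come from the clone probe taken as Bmpr2. Without it the other 4 lay between -0.33 and 0.10, with a median of 0.02. Acvr2b, a type II receptor shared by activins and BMPs, had a 4 h level of 8.45 ± 0.19 and a 16 h level of 8.78 ± 0.13 (SD, n = 3 each), a difference of -0.33 (SE 0.11, limma adjusted p = 0.737), and its values overlapped. Rgma, a BMP co-receptor, differed by 0.05 (SE 0.11, limma adjusted p = 0.983). Of the receptors for TGF-beta and activin, Tgfbr1 differed by 0.09 (SE 0.083) and Acvr1b by -0.03 (SE 0.12). Smad2, which serves that branch, differed by 0.12 (SE 0.073, limma adjusted p = 0.937). Ccn2, a target gene of TGF-beta and SMAD3, was above the limit on none of the arrays.

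No antagonist or regulator passed the threshold. Of 16 secreted or membrane antagonists, 11 were above the limit on none of the arrays, including Nog. Fstl3, a follistatin-like binder of activins, read 13.4, 15.7 and 13.8 at 4 h and 27.6, 31.7 and 18.8 at 16 h, and all 4 h values were lower (log2 difference -0.33, SE 0.073, limma adjusted p = 0.397). Bmper, which binds BMPs outside the cell, was near the limit and differed by 0.18 (SE 0.081, limma adjusted p = 0.919). Of 11 intracellular SMAD regulators with signal on all arrays, 5 were above and 6 below 0, with a median of -0.03.

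Within that list, the phosphatase gene Ctdsp2 had the smallest p. CTDSP2 removes phosphates from SMADs, among other proteins. It read 598.1, 408.6 and 595.3 at 4 h and 624, 544.8 and 423.4 at 16 h, and its normalized levels were 8.99 ± 0.11 and 9.46 ± 0.15 (SD, n = 3), with no overlap. The log2 difference of -0.47 (SE 0.095) missed the threshold (limma adjusted p = 0.338). Its relative Ctdsp1 differed by -0.21 (SE 0.095, limma adjusted p = 0.919), with overlap.

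Other genes that BMP-SMAD signals are known to induce gave mixed values. Atoh8, a bHLH factor and a direct BMP target in several cell types, read 26.2, 20.2 and 28.3 at 4 h and 4.8, 3.6 and 1.1 at 16 h. It was above the noise limit on all 4 h arrays and on none at 16 h, so that it passed the filter through 1 time point only. With 16 h at background only a bound can be given: on the normalized scale, where the offset shrinks dim signals, Atoh8 was at least 1.12-fold higher at 4 h, set against the lowest signal above the noise limit on each 16 h array. The fit itself, which used the background values at 16 h, did not call it (limma adjusted p = 0.307). Msx1, a homeobox gene, read 560.8, 497.6 and 634.6 at 4 h and 359.5, 357.6 and 290.1 at 16 h, with a difference of 0.17 (SE 0.073, limma adjusted p = 0.901) and no overlap. Hey1 differed by 0.01 (SE 0.10), Hes1 by -0.13 (SE 0.11) and Junb by -0.10 (SE 0.085). The list's 4 genes with signal on all arrays had a median of -0.04.

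The E proteins, which ID proteins hold, and the listed tissue bHLH factors together gave values of either sign. Among the E proteins, Tcf4 differed by 0.06 (SE 0.11) and Tcf12 by 0.02 (SE 0.097), with limma adjusted p of 0.979 and 0.994. Neurod1, the bHLH factor that supports hormone gene expression in enteroendocrine cells, had a 4 h level of 9.02 ± 0.16 and a 16 h level of 9.37 ± 0.21 (SD, n = 3 each), a difference of -0.35 (SE 0.12, limma adjusted p = 0.800). Hes6, a HES family factor that promotes neuronal and endocrine differentiation, differed by 0.21 (SE 0.087, limma adjusted p = 0.892). Of the CDK inhibitors, some of whose genes ID1 is known to repress in other cells, Cdkn2b differed by 0.36 (SE 0.15, limma adjusted p = 0.912) and Cdkn1b by -0.14 (SE 0.089, limma adjusted p = 0.946). Cdkn1a differed by -0.16 (SE 0.16) and Cdkn2a by -0.13 (SE 0.14). Of the 4 CDK inhibitor genes with signal on all arrays, 1 was above 0 and 3 were below. None of these passed the threshold.

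**Figure D4:**
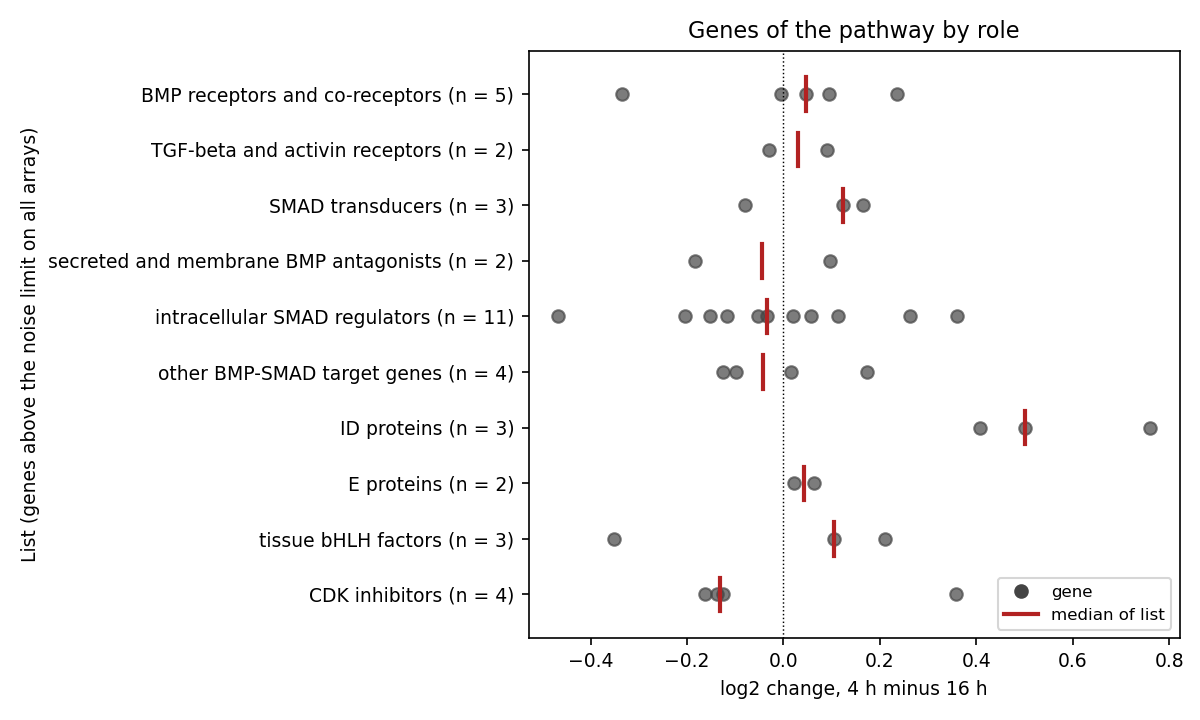
Log2 change (4 h minus 16 h, normalized scale) of each gene with signal in every sample, by role in the pathway, with a red line at the median of each list. The 3 ID genes lie between 0.41 and 0.76 with a median of 0.50, in a list built around Id1 and shown as a description. Medians of the other lists lie between -0.13 and 0.12, with single genes as far out as -0.47 and 0.36 among the SMAD regulators.

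The probes whose profile over the 6 arrays was most like that of Id1 were found by the root mean square difference of mean-centred log2 values, among probes with signal on all arrays. In order these were Fibcd1 (0.083), which encodes a chitin-binding membrane receptor, Tmem65 (0.089), Arhgap8 (0.097, listed under an older clone name), A730054J21RIK (0.10), for which no current symbol was matched, and Atf5 (0.12), a stress-responsive transcription factor. Their own log2 differences between the time points were 0.62, 0.71, 0.91, 0.71 and 0.64. Of 14940 probes so ordered, the Id2 probe was at rank 57 (0.20) and the Id3 probe at rank 91 (0.22). The second Bmpr1a probe stood at rank 966 and the brighter one at 3832, and the brighter Smad1 probe at rank 1219 and the second one at 4458. The Smad5 probes stood at ranks 7940 and 9770. These ranks rest on the same 6 arrays as the changes above and are a description of likeness only.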

How the data were processed

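Total RNA of 6 samples was hybridized to mouse WG-6 V2 Illumina BeadChips. The deposited intensities are linear, with background already subtracted and no normalization between arrays by the authors; between 31.2% and 34.0% of an array's values are below 0. Scanner settings, detection p-values and slides are not given in the sources used here.

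Background was modelled by normexp with an offset of 50 in limma 3.58.1 (R 4.3.3), followed by quantile normalization. All 45281 probes were fitted on the log2 scale (lmFit, eBayes; time point as the only term), with two-sided p and the Benjamini-Hochberg adjustment across the array at 0.05, and changes are 4 h minus 16 h. The offset shrinks changes of dim probes, and quantile normalization removes a change common to most probes.

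Values below 0 were turned in sign, and their 99th percentile was the array's noise limit; no change is given for probes exceeding it in fewer than 3 samples. Member probes were found by the symbol in the table; list genes were matched to RefSeq symbols or synonyms (79.0% of probes matched), used for names only, each at its brightest probe by normalized mean. Every member probe was named, and in each list the 2 genes with the smallest p among those above the limit on 3 or more arrays. Hey1, Hes1, Junb, Cdkn1a, Cdkn2a, markers, undetected genes and probes under older names were named after their values had been seen. Members and lists were chosen with earlier results of these data known, and no set test was run. With 3 arrays against 3, an exact two-sided permutation test cannot go below 0.1. Slide and scan batch could not be examined.

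Alternatives covered background correction, offset, between-array scaling, a filter on dim probes, the variance model, array weights, a replicate block, leaving out each array and averaging probes. With median scaling or no between-array normalization, changes were taken and tested relative to the median of the 14941 probes above the limit on all arrays (0.27 and 0.39), over all probes as planned. Fits restricted to those 14941 probes were added after the planned fits had been seen to call Id2 and Id3, and both versions are given. The 18S blocks were also added after seeing the data; arrays were first divided at the midpoint of the 18S range and then at the median.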

Additional observations from a re-analysis of the deposited data

How the results depend on the processing

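Across the 22 alternatives run for each gene, Id1, Id2, Id3, Smad1 and Smad5 kept their direction. Id2 ranged from 0.28 to 0.51 (limma adjusted p between 0.00909 and 0.999) and Id3 from 0.35 to 0.74 (between 0.0187 and 0.999). Smad1 ranged from 0.040 (the mean of its 4 probes found by symbol) to 0.23, with 0.091 without 16 h replicate 3. Smad5 ranged from -0.13 (without 16 h replicate 2) to -0.011, with -0.030 without 16 h replicate 1. Bmpr1a ranged from -0.015 (without 4 h replicate 3) to 0.21 when 1 array was left out. Id1, at changes between 0.70 and 0.86, kept its call with linear scaling, array weights, both 18S blocks and, over all probes, median scaling or no normalization between arrays, and lost it in the other 14 of 20 settings; averaging of probes has no bearing on its single probe.

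Id2 and Id3 were called in 2 settings, both planned. Median scaling over all probes gave 460 higher, 24189 lower and 8 member calls, with Id2 at 0.49 (limma adjusted p = 0.0123) and Id3 at 0.53 (0.0206). No between-array normalization gave 333, 26141 and 8, with Id2 at 0.49 (0.00909) and Id3 at 0.51 (0.0187). In each, 3 of the member calls were higher (Id1, Id2, Id3) and 5 lower, and 96.5% and 96.8% of all lower calls were probes not above the noise limit on all arrays, from which the shift of the detected probes was subtracted. Restricting both fits to detected probes, which was decided after these calls of Id2 and Id3 had been seen, gave 0 higher, 0 lower and 0 member calls (384 and 455, and 280 and 315, at an unadjusted p under 0.05).

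Without background correction limma called 19 higher and 10 lower, and 0 members. An offset of 16 gave 0 and 0 (1225 and 1261 at an unadjusted p under 0.05), cyclic loess 0 higher, trend and robust variance 1 and 0, and the noise filter 0 and 0 (524 and 504), each with 0 members. The 18S block at the midpoint gave 5 higher. With any single array omitted, calls ranged from 0 to 0 higher, lower and among members (between 3 and 5 member probes at an unadjusted p under 0.05). The cause was not tested.

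The labels number the replicates but do not say whether same-numbered samples were paired. Same-numbered arrays deviated from their group means with correlations of 0.25, 0.17 and -0.49 over detected probes. With so few arrays, these values cannot decide whether the samples were paired. With a replicate block, limma called 0 higher, 0 lower and 0 members (1268 and 1221 at an unadjusted p under 0.05). A noise limit at the 95th percentile left 11 member probes above it on 3 or more arrays, as did the 99th.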
